A study of Homo sapiens with 4 samples.

Results

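APAF1 and 7 caspase genes (CASP1, CASP2, CASP4, CASP6, CASP8, CASP9 and CASP10) were followed in MDA-MB-231 cells, an established human breast carcinoma line. These 8 genes were taken by symbol from the authors' annotated sheet, out of 24305 symbols on clusters annotated with 1 symbol, and their values were read from the gene-level table. Treated cells were grown for 3 days in medium made from 9 parts of a hypotonic saline and 1 part of concentrated (10X) DMEM, and for 30 minutes this saline had stood in the dc DEP EMF that a BEFE unit gives off. Control cells were grown for the same 3 days in medium made the same way with unexposed saline, so the hypotonic saline and the concentrated DMEM were common to both, and all cells had first spent 24 hours in DMEM with serum.

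A whole-transcript array gave log2 signal, deposited once per medium at gene level and once at exon level, and the exon-level values are not a replicate of the gene-level ones. The labels do not say whether 1 column stands for 1 array, pooled RNA or a mean of the 5 biological replicates named in the RNA quality check. No spread between cultures could be measured, no test was made, and no difference below has an error. Medium and array cannot be told apart. Genes known to be used by this line (VIM, CD44, CAV1 and AXL) lay above the signal floor defined below, and ESR1, PGR, CDH1 and the leukocyte genes PTPRC and CD3E lay below it. ERBB2, which had been listed with the genes this line lacks, lay above it, with 8.41 in treated and 9.05 in control medium.

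Caspases are cysteine proteases made as inactive precursors, so the level of an mRNA is not a measure of protease activity. In the intrinsic pathway, cytochrome c that leaks from mitochondria makes the scaffold protein APAF1 assemble into a wheel, the apoptosome, which recruits and switches on the initiator CASP9. In the extrinsic pathway, death receptors gather and switch on the initiators CASP8 and CASP10. Both routes lead to effector caspases, which cut cellular proteins, while the inflammatory caspases CASP1 and CASP4 act in pyroptosis and in cytokine release.

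The promoter windows of the 3 genes with the largest differences are shown here, since the results on single genes turn on these 3. Each is the 250 bases before the RefSeq start of the gene in GRCh38.p14, read 5′ to 3′ on the gene's own strand, and capitals mark a GC box (GGGCGG) or a CCAAT box (CCAAT) on either strand. APAF1 lies at chr12:98645040-98645289 on the plus strand, CASP6 at chr4:109703446-109703695 on the minus strand and CASP4 at chr11:104968575-104968824 on the minus strand.
APAF1: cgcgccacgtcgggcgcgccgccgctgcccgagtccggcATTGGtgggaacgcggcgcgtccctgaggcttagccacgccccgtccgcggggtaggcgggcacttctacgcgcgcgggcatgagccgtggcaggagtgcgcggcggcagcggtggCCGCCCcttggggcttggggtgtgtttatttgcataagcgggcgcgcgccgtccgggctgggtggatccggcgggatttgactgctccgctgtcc
CASP6: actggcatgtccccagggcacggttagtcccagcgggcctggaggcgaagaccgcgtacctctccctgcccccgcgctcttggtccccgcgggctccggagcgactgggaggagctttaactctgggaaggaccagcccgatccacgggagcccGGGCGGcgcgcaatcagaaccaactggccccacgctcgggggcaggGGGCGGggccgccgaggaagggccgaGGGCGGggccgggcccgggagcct
CASP4: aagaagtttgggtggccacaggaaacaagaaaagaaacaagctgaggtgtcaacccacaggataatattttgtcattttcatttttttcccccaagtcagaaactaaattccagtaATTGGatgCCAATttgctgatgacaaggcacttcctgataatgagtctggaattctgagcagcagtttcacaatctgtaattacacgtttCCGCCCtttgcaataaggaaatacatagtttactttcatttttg

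The windows of APAF1 and CASP6 were 73.6% and 74.0% G or C and held 38 and 26 CpG pairs, and the window of CASP4 was 38.0% G or C and held 2. Both windows of CASP9, a gene near equal in the media, were 77.6% and 71.6% G or C with 29 and 25 CpG pairs, and those of CASP2, lower in treated medium, were 71.2% and 44.0% with 29 and 2. The windows of CASP8, also near equal in the media, were 45.6%, 42.8% and 55.6% with 6, 5 and 5. Over all 35116 RefSeq windows of this length the medians were 58.0% and 11 CpG pairs. A GC box was present in 7 of the 10 windows listed for 6 of the genes, including these 3, against 42.6% of all windows, and CCAAT was present in 5 of the 10, APAF1 and CASP4 among them but not CASP6, against 32.01% of all windows. The letters of an E2F site (TTTCCCGC, TTTCGCGC, TTTGCCGC or TTTGGCGC, either strand, 2.79% of all windows) and of an ATF4 site (TGATGNAAN, either strand, 3.13%) were in 0 of the 10. CASP1 and CASP10 had no window in the table.

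At gene level, APAF1 and CASP6 were lower in treated medium by more than 2-fold, CASP2 was lower by less than that, CASP8, CASP9 and CASP10 were near equal in both media, and CASP4 was more than 2-fold higher at low signal. Genes were counted above a floor when their mean log2 signal over both media reached 7.17, the median over clusters with 1 symbol, and 12353 genes did. Of the 8 genes, 6 were above it, and CASP1 and CASP4 were not. At least 2-fold lower were 2 of these 6, against 3.46% of all genes above the floor, and at least 2-fold higher were 0 of 6, against 3.22%. Without a floor, 2 of 8 were at least 2-fold lower, against 2.07% of all genes, and 1 of 8 at least 2-fold higher, against 2.06%. The median difference of the 6 was -0.43 and that of all genes above the floor -0.01, but the median of all 8 was -0.08, with 5 of the 8 differences below 0 and 3 above it.

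**Figure D1:**
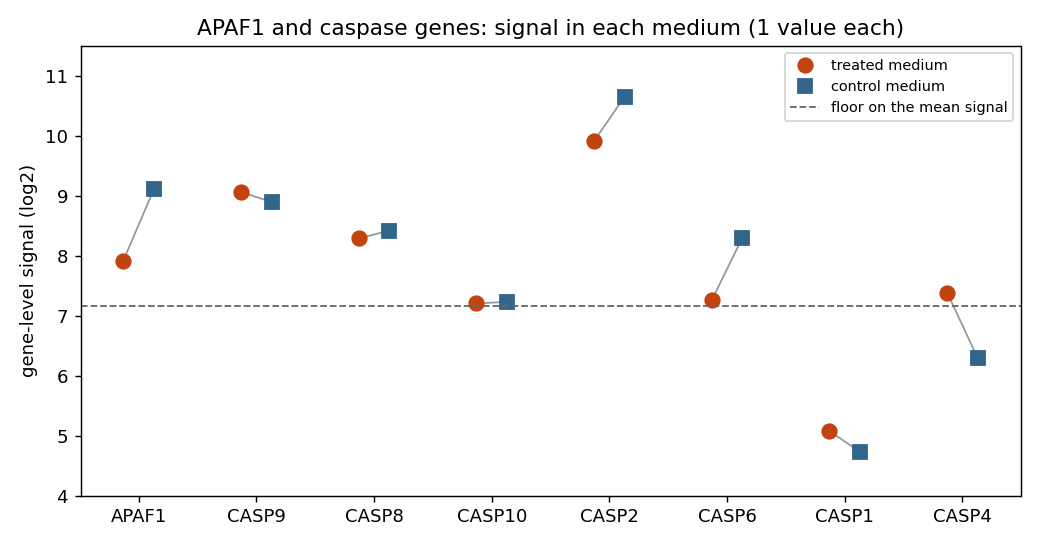
Gene-level log2 signal (vertical axis) of APAF1 and the 7 caspase genes in treated medium (circles, left of each pair) and control medium (squares), 1 value each, with the floor of 7.17 dashed. APAF1, CASP6 and CASP2 sit lower in treated medium, CASP4 lies above the floor in treated medium only, and the pairs of CASP8, CASP9 and CASP10 are nearly level.

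APAF1, the apoptosome scaffold, had a log2 signal of 7.92 in treated and 9.11 in control medium (transcript cluster 16755542, NM_181861). Its difference, treated minus control, was -1.19, a signal 2.28-fold lower in treated medium, and 272 of the 12353 genes above the floor had a lower difference. In RNA of a whole culture, less of an mRNA in every cell and its loss from some cells cannot be told apart. CASP9, the protease that APAF1 recruits, had 9.06 in treated and 8.90 in control medium (cluster 16681996), a difference of 0.17. The scaffold and its protease had differences of opposite sign, that of CASP9 within the middle range of all genes above the floor, whose quartiles were -0.26 and 0.25.

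CASP8, the main initiator at death receptors, had a signal of 8.29 in treated and 8.42 in control medium (cluster 16889475), a difference of -0.13. CASP10, its close relative encoded beside it, had 7.21 in treated and 7.23 in control medium (cluster 16889455), a difference of -0.03, and was only just above the floor. Both differences lay inside the quartiles of all genes.

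CASP2, which is activated on a platform of its own and has been linked to stress of DNA and of the spindle, had a signal of 9.92 in treated and 10.66 in control medium (cluster 17052776). It was 1.67-fold lower in treated medium, a difference of -0.74, and lay between the 2-fold threshold and the lower quartile of all genes. CASP6, an effector caspase known for cutting lamin A, had 7.26 in treated and 8.30 in control medium (cluster 16978959). It was 2.06-fold lower in treated medium, a difference of -1.04, close to the 2-fold threshold, and its treated signal was close to the floor.

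CASP1, the inflammasome protease that matures IL-1β and IL-18, had a signal of 5.08 in treated and 4.73 in control medium (cluster 16743890). Both values were under the floor, and its difference of 0.35 is not read as a direction. CASP4, which senses bacterial lipopolysaccharide inside the cell and cuts the pore protein gasdermin D, had 7.39 in treated and 6.29 in control medium (cluster 16743854, annotated in the sheet by an Ensembl transcript). CASP4 was 2.14-fold higher in treated medium, but set against the floor in place of its control signal it was only 1.16-fold higher. In the authors' deposited table, which runs the other way, the control over treated ratio was 2.28 for APAF1, 2.06 for CASP6 and 0.467 for CASP4.

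**Figure D2:**
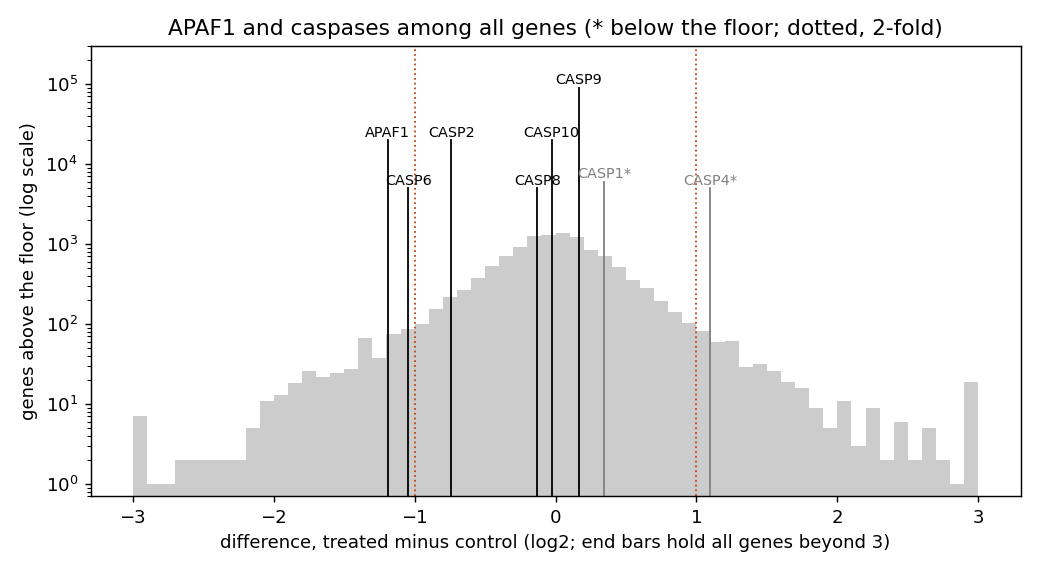
Histogram of the log2 difference, treated minus control, of the 12353 genes above the floor (vertical axis on a log scale), with lines at the 8 genes and dotted lines at 2-fold. APAF1 and CASP6 lie past the lower 2-fold line, CASP2 inside it, and CASP4, below the floor and starred like CASP1, past the upper one.

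The exon-level table was used to see whether the probe sets of a gene moved together. No table used here pairs exon-level probe sets with genes, so each was put with the transcript cluster whose ID precedes its own. Over 26802 clusters the median difference of the probe sets assigned in this way had a Pearson r of 0.964 with the gene-level difference of the same cluster, and of at most 0.086 with that of clusters 1 or 2 places away. This is across clusters, which are not replicates, and both levels share probes, so it bears on the assignment only. The 8 genes had 141 probe sets. The exon-level floor was 7.34, the median of the mean signal over all exon-level probe sets, and not only over those of clusters with 1 symbol.

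The probe sets of APAF1 were lower in treated medium along the whole set. Exon-level signal of its 33 probe sets had a lowest, median and highest value of 2.48, 7.84 and 10.51 in treated medium, against 4.01, 9.07 and 11.84 in control medium. Differences below 0 were found in 32 of the 33, and 22 were at least 2-fold lower, against 6.71% of all exon-level probe sets. All 25 probe sets above the exon-level floor were below 0, and 19 of them were at least 2-fold lower, against 4.89% of all probe sets above that floor. The floor is on the mean of both media, and 3 of the 25, of which 2 were at least 2-fold lower, were above it in control medium only. The differences had a median of -1.19 and quartiles of -1.38 and -0.91. In genes above the floor that were at least 2-fold lower, a median of 95.2% of a gene's probe sets were below 0, so the 97.0% of APAF1 is usual for such a gene.

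CASP2 had a smaller difference, also along nearly the whole set. Its 17 probe sets had a lowest, median and highest signal of 4.43, 9.89 and 11.23 in treated medium, against 2.68, 10.62 and 11.81 in control medium. The 16 above the floor were all below 0, and 1 of them, probe set 17052781, was at least 2-fold lower, with 8.57 in treated and 10.16 in control medium. The interquartile range of its differences was 0.36, about that of a typical gene above the floor, where the median range was 0.37.

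The probe sets of CASP6 differed more among themselves. Its 8 probe sets had a lowest, median and highest signal of 6.10, 7.15 and 7.80 in treated medium, against 5.19, 8.47 and 9.10 in control medium. The 6 with a mean above the floor were all below 0, and 4 of them were at least 2-fold lower, but 4 of the 6, and 3 of those past 2-fold, were above the floor in control medium only. The 2 above it in both media had differences of -0.73 and -1.12. Probe set 16978963 was furthest, with 6.999 in treated and 9.10 in control medium, a difference of -2.11. The 2 below the floor had differences of 0.07 and 0.91, and the median over all 8 was -0.93, short of 2-fold.

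**Figure D3:**
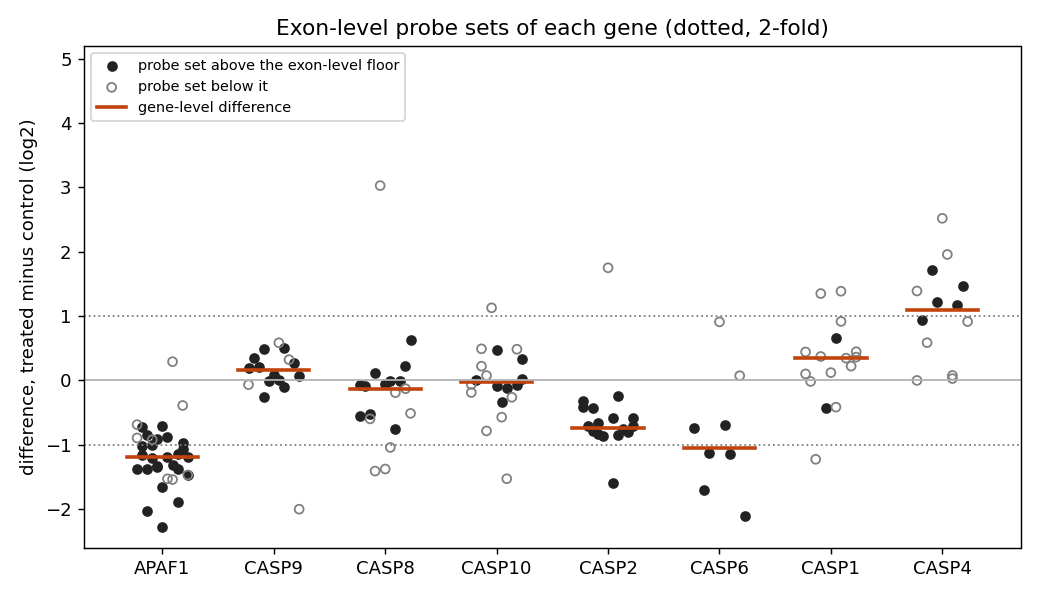
Log2 difference, treated minus control, of each exon-level probe set (points, filled above the exon-level floor of 7.34 and open below it) of the 8 genes, with the gene-level difference as a bar. The filled points of APAF1, CASP2 and CASP6 all lie below 0 and those of CASP4 all above it, while those of CASP8, CASP9 and CASP10 lie on both sides.

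CASP4 held probe sets of high signal that its gene-level value does not show. Of its 13 probe sets, 5 were above the exon-level floor, and all 5 were higher in treated medium. Their signals ran between 8.77 and 13.01 in treated medium, against 7.54 and 12.08 in control medium. The 3 strongest were probe set 16743868, with 13.01 in treated and 12.08 in control medium, 16743869, with 12.50 and 11.33, and 16743864, with 12.48 and 11.01. At least 2-fold higher were 4 of the 5, against 4.59% of all probe sets above that floor, and 7 of all 13, against 6.36% of all exon-level probe sets. Of all 13, 0 were below 0, and 1, probe set 16743872, had 5.99 in both media. The higher treated signal of CASP4 was present in its probe sets above the exon-level floor, although its gene-level mean was under the gene-level floor. CASP4 was already past 2-fold at gene level, and both levels share probes. A share above that of all probe sets is therefore not separate support.

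The remaining genes had probe sets on both sides of 0. Of the probe sets above the floor, 8 of 11 were below 0 for CASP8, 3 of 12 for CASP9 and 4 of 8 for CASP10, and 0 in these 3 genes were 2-fold lower or higher. CASP1 had 2 probe sets above the floor among 16, with differences of 0.65 and -0.42. The stronger of the 2, probe set 16743901, had 9.46 in treated and 9.88 in control medium, and the 2 differed in sign.

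**Figure D4:**
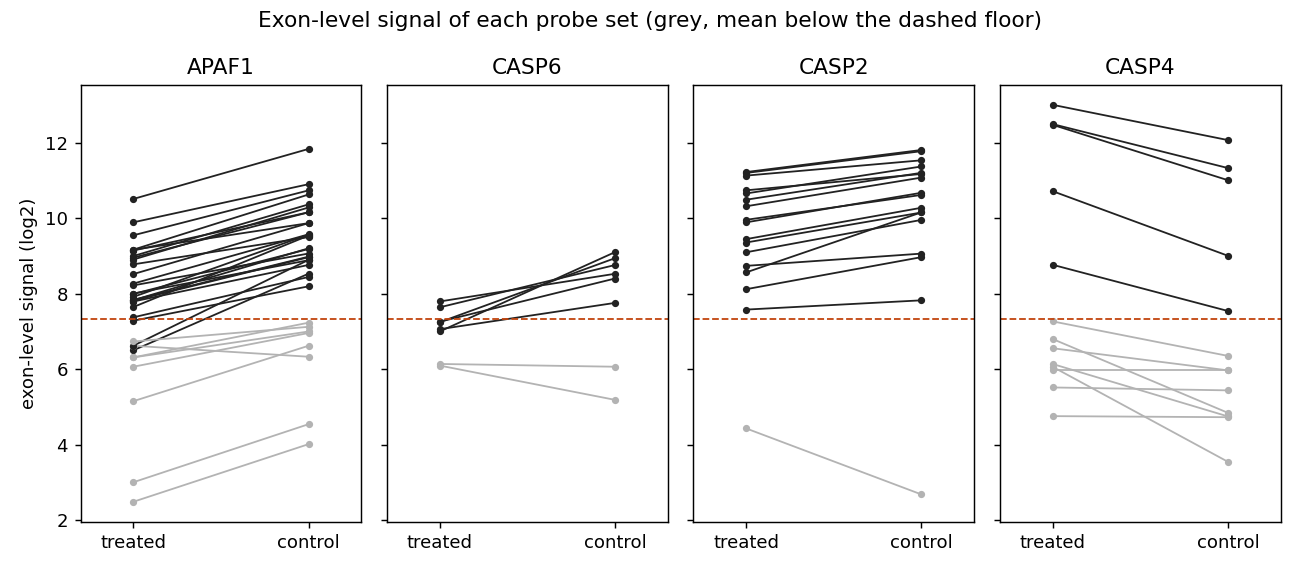
Exon-level log2 signal of each probe set of APAF1, CASP6, CASP2 and CASP4 in treated (left) and control medium (right), black where the mean over both media is above the dashed floor of 7.34 and grey where it is below. Every black line of APAF1, CASP6 and CASP2 is lower at its treated end, and every black line of CASP4 is higher there.

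The neighbours of these genes on the chromosome, by gene order in the RefSeq table of GRCh38.p14, were read beside them and were chosen after their values could be seen. CASP4 and CASP1 belong to a cluster of inflammatory caspase genes on chromosome 11. CASP5, between them, had 4.38 in treated and 4.09 in control medium, CASP12, on the other side of CASP4, had 4.58 and 4.44, and CARD16, beyond CASP1, had 4.48 and 4.34, all under the floor. CASP4 was the 1 gene of these 5 with a treated signal above the floor.

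CFLAR, CASP10 and CASP8 follow each other on chromosome 2. CFLAR encodes c-FLIP, an inhibitor that resembles CASP8 but lacks its protease activity, and had 7.92 in treated and 8.06 in control medium, a difference of -0.14 beside the -0.03 of CASP10 and the -0.13 of CASP8. IKBIP, next to APAF1 on chromosome 12, had 10.11 in treated and 10.58 in control medium, a difference of -0.47. MCUB (CCDC109B in the sheet), a subunit of the mitochondrial calcium uniporter, overlaps CASP6 in the RefSeq table and was 2.25-fold lower in treated medium, with 9.32 in treated and 10.49 in control medium. ANKS1B, which overlaps APAF1 there, had 6.48 in treated and 6.29 in control medium, under the floor. Whether a probe set of CASP6 or APAF1 also reads its overlapping neighbour was not tested. PLA2G12A, on the other side of CASP6, had 8.39 in treated and 8.38 in control medium. Beside CASP2, TMEM139 and CLCN1 had differences of -0.04 and 0.02, both under the floor. DNAJC16, beside CASP9, was above the floor with a difference of 0.31. CELA2B, on the other side of CASP9, had -1.19, and FLACC1 (ALS2CR12 in the sheet), beside CASP8, had -0.25. Both were under the floor, so their differences are not read as directions.

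Among other caspase genes, 0 of 4 above the floor were past 2-fold on either side (3.46% of all genes above the floor on the lower side and 3.22% on the higher). CASP8AP2, which binds CASP8 and is also needed for histone gene expression, had 7.98 in treated and 8.74 in control medium, the difference furthest from 0, at -0.77. CASP16P, a pseudogene listed as CASP16, had a difference of 0.33, and CASP5, CASP12 and CASP14 were under the floor.

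Of 13 partners of the apoptosome and inhibitors of apoptosis, 12 were measured and 11 were above the floor, with 1 past 2-fold on the lower side (3.46% of all genes above the floor) and 0 on the higher side (3.22%). The lower gene was BIRC5, which encodes survivin, a protein best known for its role in mitosis, with 8.65 in treated and 10.63 in control medium. XIAP, which blocks CASP9 directly and was picked after its value was seen, had 8.392 in treated and 7.995 in control medium, a difference of 0.40. CYCS, the gene of cytochrome c, and DIABLO, whose protein relieves inhibition by XIAP, were picked in the same way and had differences of -0.22 and 0.21. The median of the 11 was -0.04, beside the -1.19 of APAF1.

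Of 15 genes of the death receptor platform, 10 were above the floor, with 1 past 2-fold on the higher side (3.22% of all genes above the floor), 0 on the lower side (3.46%) and a median of 0.13. TNFRSF10D, a decoy receptor for TRAIL that lacks a working death domain, was 2.22-fold higher in treated medium, with 11.52 in treated and 10.37 in control medium. Of the 2 genes listed for the platform of CASP2, PIDD1 (PIDD in the sheet) was above the floor, with a difference of -0.58 beside the -0.74 of CASP2.

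Of 18 inflammasome and pyroptosis genes, 7 were above the floor, with 2 past 2-fold on the higher side (3.22% of all genes above the floor), 0 on the lower side (3.46%) and a median of -0.06. IL1A, the interleukin-1 alpha gene, had 9.41 in treated and 5.67 in control medium, so it passed the floor only through its treated signal. NLRP1, an inflammasome sensor gene, had 8.92 in treated and 7.56 in control medium. GSDMD, the gene of gasdermin D that CASP4 and CASP1 cut, was picked after its value was seen and had 7.75 in treated and 7.81 in control medium. The difference of GSDMD was -0.06, beside the 1.097 of CASP4.

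Of 15 genes whose proteins caspases cut, all 15 were above the floor, with 2 past 2-fold on the lower side (3.46% of all genes above the floor), 0 on the higher side (3.22%) and a median of -0.10. LMNB1, the lamin B1 gene, had 7.91 in treated and 10.06 in control medium, and PARP1, a DNA repair enzyme gene, had 9.91 in treated and 11.22 in control medium. LMNA, the gene of the lamin that CASP6 is known to cut, was picked after its value was seen and had a difference of -0.32.

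**Figure D5:**
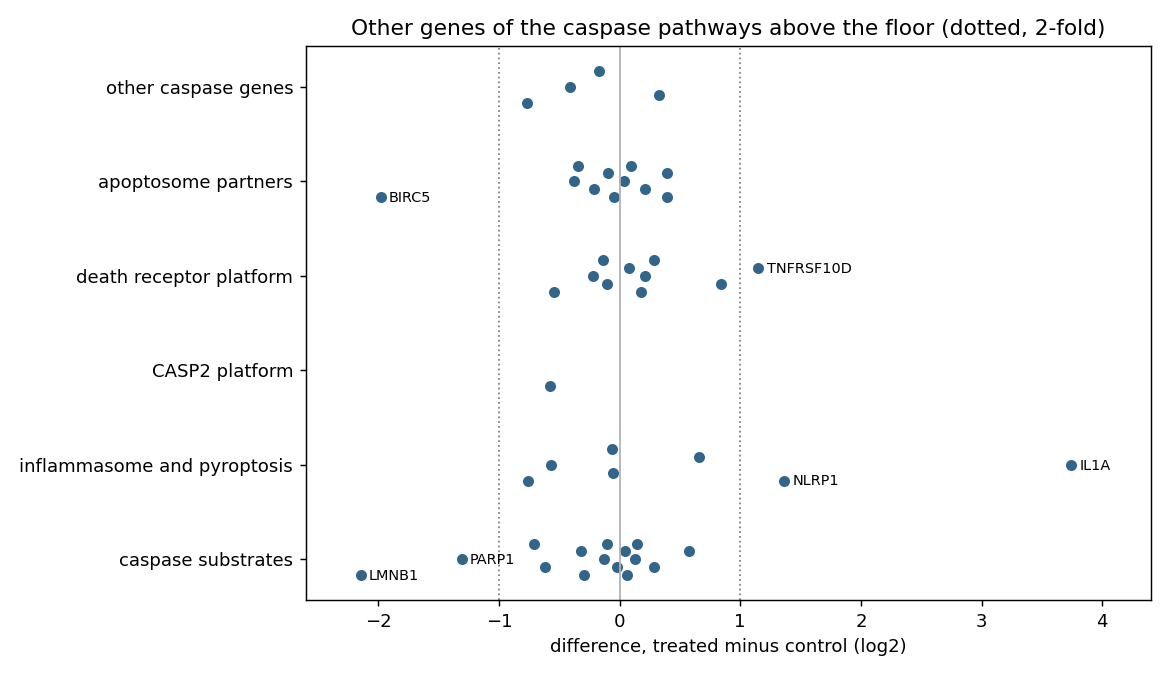
Log2 difference, treated minus control, of the genes above the floor in 6 lists of the caspase pathways, 1 point per gene, with names for those past the dotted 2-fold lines. BIRC5, LMNB1 and PARP1 lie past the lower line and TNFRSF10D, NLRP1 and IL1A past the upper one, and the other points lie between the lines.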

How the data were processed

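The authors deposited log2 signal for 53617 gene-level and 352859 exon-level probe sets. The submitters' processing notes name RMA and Affymetrix Expression Console, without version, and no genome build is given in the sources used here. Quantile normalization, a step of standard RMA, forces the probe values of all arrays to 1 distribution, so a shift of most genes is not visible. In the authors' deposited sheet, linear intensity per medium matched the antilog of these values within 5.03e-05 on the log2 scale, and each row had a ratio of control to treated intensity and a gene symbol field. Of the clusters, 25937 had 1 symbol, 3221 several names and 24459 none. Each of the 8 genes had 1 cluster; 906 other symbols had several and took the one with the highest mean signal.

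Differences are log2 treated minus log2 control, and calls are at least 2-fold, computed with pandas 2.3.3. With 1 column per medium the number of arrays limits the precision, and no test was made. The script that makes the 2-fold calls was checked on simulated data with planted differences and no noise, which bears on the counting only. List symbols were updated through RefSeq (GRCh38.p14). The genes and lists were chosen with earlier results of these data known. Named from each list were the genes above the floor past 2-fold or, with none, the 3 furthest from 0; others are marked, and some listed genes are not reported here. The design foresaw exon-level values only with a table pairing probe sets and genes; the assignment by ID was chosen after seeing the data. Alternatives covered scaling, floors, threshold and exon-level medians.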

Additional observations from a re-analysis of the deposited data

How the results depend on the processing

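Under quantile normalization, median centring and centring on the genes above the floor, APAF1 and CASP6 stayed at least 2-fold lower in treated medium. Gene-level medians were already close, 6.31 in treated and 6.33 in control medium, so centring could move a difference only slightly. Quantile normalization is a step of standard RMA, which the processing notes name, so repeating it could also change little. It gave -1.16 for APAF1 and -1.02 for CASP6. By the exon-level median, from probes shared with the gene level, APAF1 was at -1.19. CASP6 was at -0.93 by that median, and 1 gene was left in the count of lower genes. None of these settings is a replicate. With a floor at the 75th percentile (8.93), which only CASP2 and CASP9 passed, 0 genes were at least 2-fold lower and the median was -0.29. Without a floor, CASP4 made 1 gene at least 2-fold higher and the median was -0.078. A threshold of 1.5-fold gave 3 lower genes, CASP2 being added. For the lists, no floor added TNFSF10 and GBP1 as lower genes and CARD6 as a higher one, and a floor at the 75th percentile left 0 inflammasome genes past 2-fold. No replicate could be left out and no paired analysis was possible because each medium had 1 column of values. What limits these values is their lack of replicates. For CASP1, CASP4, CASP6 and CASP10, gene-level signal near or under the floor in 1 or both media is a further limit. Of the 13 probe sets of CASP4, 5 were above the exon-level floor in both media.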

Other observations

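A few probe sets had differences far from the median of their gene, and all of those named here were below the exon-level floor. Those of CASP8 and CASP9 were not alone in their sign, since 4 of 19 were above 0 for CASP8 and 5 of 16 below 0 for CASP9. CASP8 probe set 16889491 had 6.79 in treated and 3.77 in control medium, a difference of 3.03, while the gene-level difference of CASP8 was -0.13. CASP2 probe set 17052785 had 4.43 in treated and 2.68 in control medium, the 1 of 17 above 0. CASP9 probe set 16682013 had 4.23 in treated and 6.23 in control medium, where the median of its probe sets was 0.13. Exact ties occurred: 2154 exon-level probe sets (0.610%) had equal values in both media.

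The genes of the death ligand TRAIL and of its listed receptors were read side by side. TNFSF10, the gene of TRAIL, had 5.17 in treated and 6.28 in control medium. Both values were under the floor, so its difference is not read as a direction. TNFRSF10D, the gene of a decoy receptor, had 11.52 in treated and 10.37 in control medium. TNFRSF10B, a TRAIL receptor that signals death, had 10.71 in treated and 9.87 in control medium. TNFRSF10A had a difference of 0.21, and TNFRSF10C, under the floor, had -0.05. These genes, like the probe sets above, were chosen after their values were seen.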
